A study of Mus musculus with 16 samples.

Results

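Mouse 3T9 fibroblasts, an immortalised line derived from embryo cells, were brought to rest without serum for 72 h and then given 10% fetal bovine serum. Small RNA was sequenced along the serum course, and this comparison sets the 4 libraries of 4 and 6 h of serum (the mid side) against the 4 libraries of 0 and 1 h (the early side). The 8 libraries were chosen by their hours of serum from 16 in all, and each hour had 2 libraries, numbered replicate 1 and replicate 2. All 8 share the line, the starvation and the serum; the 0 h libraries come from starved cells, while the 1 h libraries come from cells that had already had serum for 1 h. The early side is therefore quiescence plus the first hour of the response. The groups are named by hours because the files hold no measure of the stage of the cell cycle. Per the text of the series, a replicate number marks its own biological experiment. The table's second header line carries a code before each library's index, 1 code for all libraries of replicate 1 and 1 for all of replicate 2; whatever the codes mark cannot be told apart from the replicate.

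MicroRNAs (miRNAs) are short RNAs cut from a hairpin by the enzymes Drosha and Dicer; 1 arm of the hairpin, the guide, is usually kept in an Argonaute protein, and the other, the passenger, is usually lost. Bases 2 to 8 from the 5′ end, the seed, do most of the pairing with target messenger RNAs, so miRNAs with the same seed share many possible targets. Mature miRNAs are often long-lived, and passenger arms are as a rule less stable than guides. Return of serum to resting fibroblasts raises the activity of transcription factors such as AP-1, SRF, CREB and MYC, and several miRNA genes are known as targets of these factors.

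A selection of the risen miRNAs, those on which the described rises and shared seeds turn, is shown with the seed in capitals; the sequences are those of RefSeq for GRCm38.p6, which held 346 of the 417 miRNAs tested and 86 of the 99 called. Shared seeds stand next to each other.
miR-155-5p: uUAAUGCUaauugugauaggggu
miR-155-3p: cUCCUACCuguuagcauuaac
miR-29b-1-5p: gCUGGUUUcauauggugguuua
miR-455-3p: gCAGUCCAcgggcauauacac
miR-455-5p: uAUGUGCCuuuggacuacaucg
miR-149-5p: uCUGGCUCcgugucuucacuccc
miR-92a-1-5p: aGGUUGGGauuugucgcaaugcu
miR-221-5p: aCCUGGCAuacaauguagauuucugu
miR-222-3p: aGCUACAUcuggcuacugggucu
miR-132-3p: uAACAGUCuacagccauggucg
miR-212-3p: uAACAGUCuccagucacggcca
miR-146a-5p: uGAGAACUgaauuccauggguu
miR-146b-5p: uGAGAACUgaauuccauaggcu
miR-125a-5p: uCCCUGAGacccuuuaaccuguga
miR-125b-5p: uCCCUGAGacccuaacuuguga
miR-129-5p: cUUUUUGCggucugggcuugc
miR-129b-3p: cAAGCCCAgaccgcaaaaagauu

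A selection of the fallen miRNAs is shown in the same way. miR-351-5p has the seed of miR-125a-5p and miR-125b-5p but fell, and miR-26a-2-3p and miR-26b-3p share a passenger-arm seed. No sequence of miR-30b-5p, miR-5099 or miR-222-5p was used.
miR-351-5p: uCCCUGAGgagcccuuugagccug
miR-26a-2-3p: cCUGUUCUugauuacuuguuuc
miR-26b-3p: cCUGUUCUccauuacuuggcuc
miR-26a-1-3p: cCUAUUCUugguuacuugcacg
miR-30c-5p: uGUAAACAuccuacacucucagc
miR-130a-5p: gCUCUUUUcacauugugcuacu
miR-501-5p: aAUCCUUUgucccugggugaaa
miR-16-1-3p: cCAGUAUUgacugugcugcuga
miR-193a-3p: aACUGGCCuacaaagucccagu
miR-503-5p: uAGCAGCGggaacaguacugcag
miR-322-5p: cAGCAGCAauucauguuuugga
miR-335-3p: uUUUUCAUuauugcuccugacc

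Of 37 seeds carried by at least 2 tested miRNAs with a sequence, 18 had at least 1 called miRNA. Of all 417 tested miRNAs 23.7% were called, and a seed with more members has more chances to hold a call. The counts of seeds were not tested. Calls in both directions were found for 1 seed, that of miR-125 and miR-351. It was also 1 of 3 seeds with at least 2 risen members, beside those of miR-132-3p and of miR-146a-5p. Among miRNAs with a sequence, the shared passenger seed of miR-26 was the 1 seed with at least 2 fallen members. For the guide seed of the miR-30 family, miR-30c-5p fell, and miR-30a-5p and miR-30e-5p, the others with a sequence, did not pass the test. The guides miR-30b-5p, which fell, and miR-30d-5p, which did not pass, had no sequence and were left out of these counts.

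Each of the 8 libraries held between 5852087 and 7783249 miRNA reads and between 751 and 816 detected miRNAs, so that a miRNA without reads could still stand at up to 0.385 to 0.513 CPM by library (CPM is the count scaled by library size). That limit is 3 reads and takes in counting error alone, as no molecular tags were read. The 13 fibroblast and mesenchymal marker miRNAs, all tested, together made up 323720 to 389730 CPM in a library. They include miR-22 and miR-21a, which are also in the list of growth-factor-induced miRNAs. The 9 liver and gut markers made up 649 to 776 CPM, the 11 epithelial ones 95.0 to 127 and the 7 blood markers 2.72 to 4.10. Of these lists, in the same order, 3, 2 and 2 members were tested. No pluripotency marker passed the filter on low counts (0.280 to 1.22 CPM summed over all 10). Of the 13 fibroblast markers 1 rose and 1 fell, against 12.2% risen and 11.5% fallen of all tested. The 2 tested blood markers did not pass the test. These are bulk libraries, in which fewer cells of a type and less RNA per cell cannot be told apart.

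At 4 and 6 h, 99 of 417 tested miRNAs differed from 0 and 1 h, 23.7% of those tested (edgeR quasi-likelihood test with the replicate as block, Benjamini-Hochberg adjusted p under 0.05). Of these 51 rose (12.2%) and 48 fell (11.5%), and all 99 had the same sign in both replicates; 150 miRNAs (36%) had an unadjusted p under 0.05. The change was more than 2-fold for 23 of the risen and 13 of the fallen. The median log2 change over all tested miRNAs was 0.0052, so that the fit was centred near 0. Called miRNAs were not drawn from 1 end of the abundance range: the median level was 34.7 CPM for the risen, 30.2 for the fallen and 26.2 for all tested. With library totals in place of TMM scaling the median moved to -0.086 and the split became 42 risen and 81 fallen. The 4 mid libraries lay above all 4 early ones for 49 miRNAs (11.8% of those tested), of which 45 were called, and below them for 45 (10.8%), of which 34 were called.

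**Figure D1:**
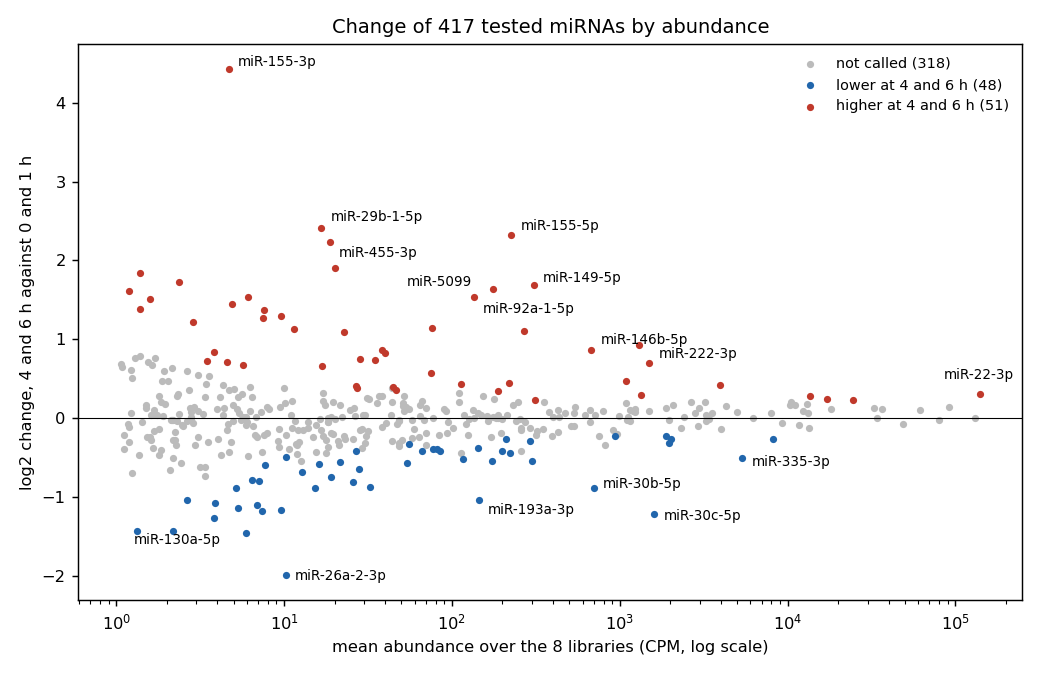
Each point is 1 of 417 tested miRNAs, with its mean level over the 8 libraries in CPM on a log axis (horizontal) and its log2 change at 4 and 6 h against 0 and 1 h (vertical); red marks the 51 that rose, blue the 48 that fell. The changes of over 1 on the log2 scale lie mostly among miRNAs of low or middle level, while miR-22-3p, the most abundant, rose by 0.31.

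The lists were chosen with earlier results of these data known, so their counts are description and no test. Both arms of a hairpin could be members. Of the lists examined, that of miRNAs described as induced by growth factors or early transcription factors held the most risen members. Of its 18 tested members 12 rose and the other 6 did not pass, with a median log2 change of 0.78, against 51 risen and 48 fallen of 417 and a median of 0.0052 overall. miR-155, which is made from the transcript Mir155hg and is best known from activated lymphocytes and macrophages, was among them. miR-155-5p (chromosome 16, 84714143 to 84714165, GRCm38, in an exon of Mir155hg) stood at 76.1 and 83.2 CPM at 0 h, 68.7 and 80.7 at 1 h, 354 and 413 at 4 h, then 319 and 413 at 6 h in replicates 1 and 2. All mid libraries stood far above all early ones, and the log2 change was 2.32 (SE 0.09, adjusted p = 2.97e-10). Its passenger miR-155-3p (84714182 to 84714202) rested on 12 reads in the 4 early libraries and 264 in the 4 mid ones: it stood at 0.140 and 0.271 CPM at 0 h, 1.07 and 0.146 at 1 h, 10.2 and 14.6 at 4 h, then 4.59 and 6.56 at 6 h. The groups did not overlap, and the log2 change was 4.43 (SE 0.51, adjusted p = 2.75e-05), a size that rests on few early reads and was 5.62 (adjusted p = 1.23e-05) without replicate 1 of 1 h.

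Both members of the pair miR-132 and miR-212, which share a seed and a CREB-responsive transcript, rose. miR-132-3p (chromosome 11, 75173723 to 75173744, in an intron of 1700016P03Rik) stood at 22.8 and 23.0 CPM at 0 h, 26.6 and 33.7 at 1 h, 38.2 and 43.6 at 4 h, then 40.1 and 49.8 at 6 h. Early and mid libraries did not overlap, but the 1 h libraries were already the 2 highest of the early side (log2 change 0.73, SE 0.13, adjusted p = 0.00118). miR-212-3p, from the hairpin upstream of it in the same intron (75173443 to 75173464), went from 2.71 ± 0.604 CPM (SD, n = 4) to 7.14 ± 1.11 (log2 change 1.45, SE 0.20, adjusted p = 0.000153). Its other arm, miR-212-5p, went from 4.30 ± 0.564 to 10.9 ± 2.82 CPM (log2 change 1.37, SE 0.17, adjusted p = 6.64e-05).

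The pair miR-221 and miR-222, known for repressing the cyclin-dependent kinase inhibitor p27, rose in 3 of its 4 arms. miR-222-3p (chromosome X, 19146901 to 19146923, outside annotated genes) stood at 1059 and 1238 CPM at 0 h, 1104 and 1273 at 1 h, 1759 and 1686 at 4 h, then 1977 and 1898 at 6 h. Mid libraries were all higher (log2 change 0.69, SE 0.08, adjusted p = 1.90e-05), although the reads equal to the reference sequence alone gave -0.17 (adjusted p = 0.285). Its passenger miR-222-5p rose by 0.82, but by 0.19 in those reads alone (adjusted p = 0.510). miR-221-5p stood at 147 and 170 CPM at 0 h, 178 and 198 at 1 h, 321 and 357 at 4 h, then 412 and 361 at 6 h (log2 change 1.11, SE 0.11, adjusted p = 4.13e-06). Its guide miR-221-3p, which has the seed of miR-222-3p, was at 1839 CPM early and 1952 mid and did not pass the test (log2 change 0.13, adjusted p = 0.207).

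The feedback regulators of NF-kappaB signalling miR-146a and miR-146b also rose. miR-146b-5p (chromosome 19, 46342790 to 46342811, in an intron of Mfsd13a) stood at 350 and 624 CPM at 0 h, 447 and 558 at 1 h, 759 and 716 at 4 h, then 983 and 982 at 6 h (log2 change 0.87, SE 0.14, adjusted p = 0.000497). In reads equal to the reference its log2 change was -0.06 (adjusted p = 0.815), and those reads were 4.35% of its reads early and 2.36% mid. miR-146a-5p, with the same seed, was far rarer at 2.78 ± 0.425 CPM early and 4.86 ± 0.824 mid (log2 change 0.84, SE 0.19, adjusted p = 0.00554; 0.0649 in reference reads only). Among the 6 listed members that did not pass was miR-21a-5p, a serum- and AP-1-responsive miRNA, at 59770 ± 2803 CPM early and 62690 ± 10504 mid (log2 change 0.10). miR-31-5p, at 9944 CPM early, did not pass either (0.16). Their other arms, miR-21a-3p and miR-31-3p, lay at -0.21 each and did not pass, while 16 of the 18 changes were positive.

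**Figure D2:**
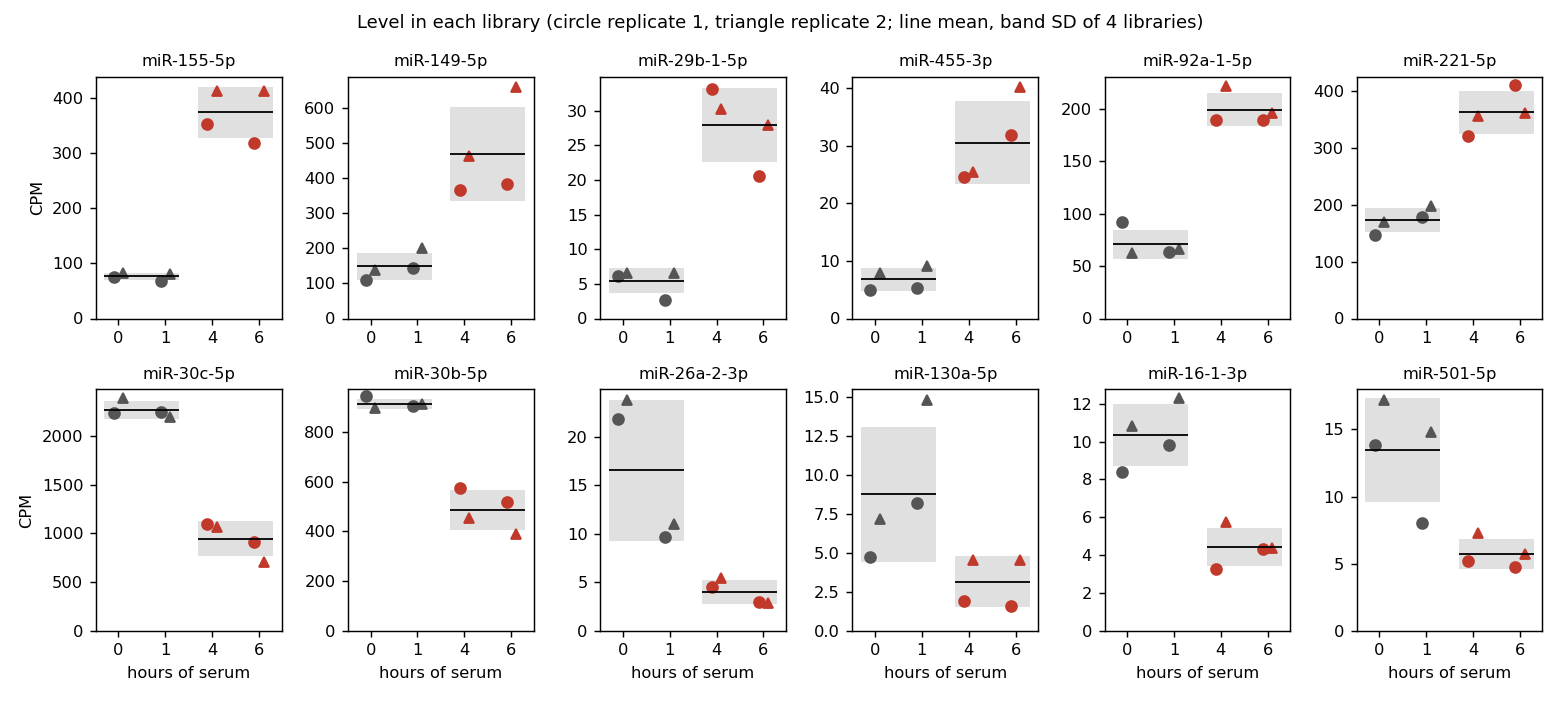
Level in CPM (vertical) at 0, 1, 4 and 6 h of serum (horizontal) for 6 risen (upper) and 6 fallen miRNAs (lower); circles are replicate 1, triangles replicate 2, the line is the mean of 4 libraries and the band its SD. In all 12 panels the early and mid libraries do not overlap, and miR-26a-2-3p already stands lower at 1 h than at 0 h.

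Among 5 tested miRNAs linked to matrix and cartilage genes 3 rose, and 2, the arms of miR-140, did not pass the test. Of all tested miRNAs 12.2% rose. miR-455 is intronic to Col27a1, a collagen gene (chromosome 4, 63256867 to 63256924 over both arms). miR-455-3p stood at 4.90 and 7.98 CPM at 0 h, 5.24 and 9.08 at 1 h, 24.6 and 25.5 at 4 h, then 32.0 and 40.2 at 6 h, all mid values above all early ones (log2 change 2.23, SE 0.19, adjusted p = 2.08e-06). miR-455-5p went from 8.65 ± 1.52 to 31.3 ± 4.70 CPM (log2 change 1.90, SE 0.16, adjusted p = 2.08e-06). miR-149-5p, in an intron of the glypican gene Gpc1 (chromosome 1, 92850381 to 92850403), stood at 110 and 139 CPM at 0 h, 143 and 202 at 1 h, 365 and 464 at 4 h, then 384 and 660 at 6 h. It was higher in replicate 2 at each of these hours, and the mid libraries stood clear of the early ones (log2 change 1.69, SE 0.15, adjusted p = 2.08e-06).

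The guides of the miR-29 family repress collagen and elastin messages. Of its 5 tested members 3 rose and the other 2 did not pass, against 12.2% risen of all tested. The passenger miR-29b-1-5p (chromosome 6, 31063067 to 31063088) stood at 6.15 and 6.49 CPM at 0 h, 2.69 and 6.59 at 1 h, 33.1 and 30.2 at 4 h, then 20.5 and 27.9 at 6 h (log2 change 2.41, SE 0.22, adjusted p = 2.31e-06). Its guide miR-29b-3p was at 58.2 ± 11.3 CPM early and 57.5 ± 22.4 mid and did not pass (log2 change -0.02). The guide miR-29a-3p of the neighbouring hairpin went from 3445 ± 319 to 4468 ± 140 CPM without overlap (log2 change 0.42, SE 0.06, adjusted p = 0.000159), and its passenger miR-29a-5p also rose (0.66), but not with 0 h alone as the early side (0.48, adjusted p = 0.0873) or in reference reads only (0.46, adjusted p = 0.0984).

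Of the MYC-responsive miR-17-92 cluster and its paralogs, 3 of 16 tested members rose and 1 fell, against 12.2% risen and 11.5% fallen of all tested, with a median log2 change of 0.07. The largest change was in miR-92a-1-5p, the passenger of the last hairpin (chromosome 14, 115044437 to 115044459, in an exon of Mir17hg): 91.6 and 62.1 CPM at 0 h, 63.2 and 66.2 at 1 h, 190 and 222 at 4 h, then 190 and 196 at 6 h. The mid libraries were tightly grouped and far above the early ones (log2 change 1.54, SE 0.13, adjusted p = 2.08e-06). Its guide miR-92a-3p, at 22823 ± 1257 CPM early and 25946 ± 2474 mid, changed by 0.23 (adjusted p = 0.0102), a call that was lost with library totals as scaling (adjusted p = 0.0694), without the replicate block (0.0738) and without replicate 2 of 0 h (0.0604) or of 1 h (0.0591). The guides miR-17-5p, miR-20a-5p, miR-93-5p and miR-25-3p lay between -0.01 and 0.24 and did not pass.

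Of the 6 tested neural marker miRNAs 3 rose and 1 fell, against 12.2% risen and 11.5% fallen of all tested. All 12 neural markers counted, tested or not, together made up 284 to 506 CPM in the early libraries and 235 to 475 in the mid ones. The most abundant of them, miR-129-2-3p, was at 295 ± 89.2 CPM early and 222 ± 92.7 mid and did not pass (log2 change -0.42, adjusted p = 0.0543), though it was called lower under 9 of the alternatives, for example by DESeq2 (adjusted p = 0.0183). The member that fell was miR-129b-5p, from 19.4 ± 4.43 to 12.8 ± 4.37 CPM (-0.58, adjusted p = 0.00595), and its call was lost without the replicate block (0.132). Of the defining neural miRNAs, miR-9-5p was at 6.84 CPM early and 6.23 mid (log2 change -0.10), and miR-124-3p was too rare to test. miR-129-5p stood at 42.5 and 49.7 CPM at 0 h, 48.4 and 52.9 at 1 h, 89.8 and 109 at 4 h, then 86.0 and 133 at 6 h (log2 change 1.14, SE 0.11, adjusted p = 5.60e-06). The hairpin Mir129b lies antisense to Mir129-2, and miR-129b-3p (chromosome 2, 94241420 to 94241442, plus strand) covers miR-129-5p (94241419 to 94241439, minus strand) almost base for base. miR-129b-3p went from 7.29 ± 1.25 to 15.7 ± 4.49 CPM (log2 change 1.13, SE 0.16, adjusted p = 0.000153). Whether the counting used strand is not given in the sources used here, so the pair cannot be taken as independent. A part of other cells in these values was not tested.

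Other large rises were in rarer or less well placed miRNAs. miR-5099, whose function is little described, stood at 115 and 61.7 CPM at 0 h, 91.1 and 85.8 at 1 h, 276 and 205 at 4 h, then 324 and 255 at 6 h (log2 change 1.63, SE 0.13, adjusted p = 2.08e-06). miR-203-3p, a keratinocyte miRNA, had 32 early and 101 mid reads (log2 change 1.73, SE 0.24, adjusted p = 0.000153), while the other tested epithelial marker, miR-205-5p, was at 108 and 96.0 CPM and did not pass. miR-146b-3p and miR-6963-3p had 18 and 17 early reads and log2 changes of 1.84 and 1.62. miR-5121, which overlaps exons of Rpl13a and of the small nucleolar RNA Snord33, rose by 1.54 on the log2 scale, and for such annotations fragments of the host transcript cannot be told apart from the miRNA.

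The most abundant miRNAs changed little. miR-22-3p (chromosome 11, 75463772 to 75463793, in an exon of Mir22hg) stood at 135084 and 124549 CPM at 0 h, 127221 and 118098 at 1 h, 147947 and 153733 at 4 h, then 152154 and 153791 at 6 h. All mid libraries were above all early ones, by a log2 change of 0.31 (SE 0.06, adjusted p = 0.000907). After it in level came miR-143-3p, a mesenchymal marker at 131706 ± 7932 CPM early and 128470 ± 13625 mid, which did not pass (log2 change 0.0028), nor did miR-99b-5p (0.15) or miR-27b-3p (-0.02). The seed shared by miR-125 and miR-351 was split: miR-125b-5p went from 12522 ± 824 to 14757 ± 1596 CPM (log2 change 0.28, adjusted p = 0.0102), and miR-351-5p from 9054 ± 1121 down to 7308 ± 991 (-0.27, adjusted p = 0.0110), each with overlap between early and mid libraries. The miR-351-5p call was lost without the replicate block (adjusted p = 0.104) and with 1 h alone as the early side (0.0843) or 4 h alone as the mid side (0.0802), and that of miR-125b-5p in the fit of all 16 libraries (0.0824) and with 1 h alone (0.144). miR-125a-5p rose by 0.24 (adjusted p = 0.0211), but not with library totals as scaling (adjusted p = 0.126) and not without replicate 1 of 0 h (0.0767), replicate 2 of 0 h (0.0614), 1 h (0.0949) or 4 h (0.0950).

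The largest fall among abundant miRNAs was in the miR-30 family, guides known for restraining differentiation and autophagy genes, of which 2 of 12 tested arms fell and the other 10 did not pass, against 11.5% fallen of all tested. miR-30c-5p stood at 2232 and 2392 CPM at 0 h, 2244 and 2192 at 1 h, 1096 and 1067 at 4 h, then 914 and 707 at 6 h. The early libraries were close together, and all mid ones were far below them (log2 change -1.22, SE 0.11, adjusted p = 2.30e-06). miR-30b-5p stood at 945 and 898 CPM at 0 h, 906 and 912 at 1 h, 576 and 455 at 4 h, then 520 and 390 at 6 h (log2 change -0.88, SE 0.08, adjusted p = 4.13e-06). miR-30a-5p, miR-30d-5p and miR-30e-5p, at 9560, 10524 and 2448 CPM early, did not pass (-0.06, 0.17 and -0.13). miR-30c-5p comes from 2 hairpins, in an intron of Nfyc on chromosome 4 (120769584 to 120769606) and in Gm27028 on chromosome 1 (23291714 to 23291736), and its reads cannot be assigned to either. How reads that fit several members of the family were counted is not given in the sources used here.

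The miR-26 hairpins lie in introns of Ctdsp2, Ctdspl and Ctdsp1, phosphatase genes that oppose entry into the cell cycle. miR-26a-2-3p (chromosome 10, 126995581 to 126995602) stood at 21.8 and 23.8 CPM at 0 h, 9.67 and 11.0 at 1 h, 4.55 and 5.46 at 4 h, then 3.01 and 2.86 at 6 h (log2 change -1.99, SE 0.31, adjusted p = 0.00037). It was lower at each later hour in both replicates, and early and mid libraries did not overlap. miR-26a-1-3p (-1.14, adjusted p = 0.0052) and miR-26b-3p (-0.75, adjusted p = 0.00425) fell too. Thus 3 of 5 tested members of the family fell, each of them a passenger, against 11.5% fallen of all tested. The guides miR-26a-5p (50452 ± 4024 CPM early, 46467 ± 5014 mid) and miR-26b-5p did not pass at -0.08 and -0.10, but with library totals as scaling both were called lower (-0.17, adjusted p = 0.0441, and -0.20, adjusted p = 0.0411).

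miR-130a-5p, the passenger of the vascular miRNA miR-130a, stood at 4.76 and 7.17 CPM at 0 h, 8.20 and 14.8 at 1 h, 1.90 and 4.55 at 4 h, then 1.58 and 4.54 at 6 h (log2 change -1.46, SE 0.28, adjusted p = 0.0016). Replicate 2 was higher in all 4 hours, and the highest mid library was just under the lowest early one. miR-16-1-3p, from the Dleu2 intron that also yields miR-15a, went from 10.3 ± 1.65 to 4.42 ± 1.00 CPM (-1.18, SE 0.17, adjusted p = 0.000159). Its guide miR-16-5p, a repressor of cyclin genes, was at 12249 ± 229 CPM early and 11226 ± 405 mid (-0.08, adjusted p = 0.269; -0.17 and adjusted p = 0.0358 with library totals). miR-33-3p from the sterol regulator gene Srebf2 (-1.26, adjusted p = 0.000497), miR-23b-5p (-1.10, adjusted p = 0.000602) and miR-652-5p (-1.43, adjusted p = 0.00484; 57 early and 20 mid reads) fell without overlap. let-7c-1-3p fell by 1.43 on the log2 scale (adjusted p = 0.0215) with overlap, and its call was lost without replicate 1 of 4 h (adjusted p = 0.0624), replicate 2 of 4 h (0.0845) or replicate 2 of 6 h (0.0731).

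The cluster of miR-322 and miR-503 on chromosome X has members that repress cyclins and Cdc25a. Of its 11 tested arms 4 fell and the other 7 did not pass (median log2 change -0.22), against 11.5% fallen of all tested. miR-503-5p (53054027 to 53054049) stood at 6.29 and 5.41 CPM at 0 h, 5.37 and 4.10 at 1 h, 2.53 and 2.60 at 4 h, then 2.87 and 1.68 at 6 h (log2 change -1.07, SE 0.20, adjusted p = 0.00132). miR-450b-5p went from 65.5 ± 10.2 to 42.8 ± 6.79 CPM (-0.57, adjusted p = 0.00588). The abundant miR-322-5p, at 2208 ± 417 CPM early and 1839 ± 590 mid, changed by -0.26 (adjusted p = 0.0354). It was not called without the replicate block (adjusted p = 0.465), nor without replicate 2 of 0 h (0.0798), replicate 1 of 4 h (0.0580), replicate 2 of 4 h (0.0686) or replicate 2 of 6 h (0.126).

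Both arms of miR-335, which is intronic to Mest, an imprinted gene (chromosome 6), fell. miR-335-3p stood at 5677 and 6717 CPM at 0 h, 6346 and 6843 at 1 h, 4413 and 5214 at 4 h, then 3961 and 3821 at 6 h, with no overlap (log2 change -0.51, SE 0.09, adjusted p = 0.000569). miR-335-5p changed by -0.31 (adjusted p = 0.0452), with overlap, and lost its call without the replicate block (adjusted p = 0.102) and without any of replicate 2 of 0 h (0.111), 1 h (0.0508), 4 h (0.0760) or 6 h (0.154), or replicate 1 of 4 h (0.0528).

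In the cluster in introns of Clcn5 on chromosome X 3 of 9 tested arms fell and the other 6 did not pass. Of all tested miRNAs 11.5% fell. miR-501-5p stood at 13.8 and 17.2 CPM at 0 h, 8.06 and 14.8 at 1 h, 5.18 and 7.28 at 4 h, then 4.73 and 5.72 at 6 h (-1.17, SE 0.18, adjusted p = 0.000362), but in reference reads only its log2 change was -0.38 (adjusted p = 0.464). miR-188-5p (-0.65, adjusted p = 0.00556) and miR-532-3p (-0.42, adjusted p = 0.00407; -0.25 and 0.154 in reference reads only) also fell, while miR-501-3p, at 1024 ± 53.0 and 1144 ± 117 CPM, and miR-532-5p did not pass. In the let-7 family, which restrains growth genes such as Myc, Ras and Hmga2, 1 of 20 tested arms rose and 3 fell, against 12.2% and 11.5% of all tested, with a median of 0.05, and the abundant guides let-7f-5p and let-7i-5p lay at 0.12 and 0.11. The risen arm, let-7e-3p (0.39, adjusted p = 0.0110), lost its call with library totals (adjusted p = 0.0537) and without replicate 2 of 1 h (0.0610), replicate 1 of 4 h (0.0519) or replicate 2 of 4 h (0.0611).

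miR-193a-3p was the member whose fall differed between the replicates. It stood at 165 and 232 CPM at 0 h, 139 and 253 at 1 h, 101 and 75.3 at 4 h, then 118 and 74.6 at 6 h (log2 change -1.03, SE 0.19, adjusted p = 0.00126). Replicate 2 was above replicate 1 on the early side and below it on the mid side. The change in replicate 2 minus that in replicate 1 was -1.18 (SE 0.18, adjusted p = 0.0114), the only such difference among 434 miRNAs fitted (0.23%; 57 had an unadjusted p under 0.05, 13.1%). Its passenger miR-193a-5p went the other way, from 4.46 ± 0.945 to 6.93 ± 0.568 CPM (log2 change 0.67, adjusted p = 0.0140), a call lost without replicate 2 of 1 h (adjusted p = 0.0598) and by DESeq2 (0.0635).

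The other families are given by their counts, beside the 12.2% risen and 11.5% fallen of all tested. In the family of miR-15a and miR-16 1 of 9 tested arms fell, and in that of miR-34 and miR-449 1 of 6. In the miR-99, miR-100 and miR-125 families 3 of 10 rose, and in the Dlk1-Dio3 cluster 2 of 4. The other tested arms of these lists did not pass. The call of miR-34a-5p was lost without the replicate block (adjusted p = 0.0602). miR-411-5p of the Dlk1-Dio3 cluster (0.73) kept its call in 3 of the 8 fits that left out 1 library. The 5 tested arms of miR-143, miR-145 and muscle miRNAs did not pass (-0.20 to 0.76), of the 5 arms of miR-199 and miR-214 miR-214-3p alone was called lower (-0.23, adjusted p = 0.0228), of the 11 arms of the miR-23, miR-27 and miR-24 clusters 2 fell, both passengers, and of 7 miR-181 arms 2 fell, both passengers. miR-24-1-5p (-0.49, adjusted p = 0.0263) lost its call by DESeq2 (0.0593) and without replicate 1 of 1 h (0.0586), replicate 2 of 1 h (0.0638), replicate 1 of 4 h (0.0524), replicate 2 of 4 h (0.0780) or replicate 2 of 6 h (0.0849). miR-181b-1-3p (-0.80, adjusted p = 0.0269) lost it without the replicate block (0.0823) and without replicate 1 (0.0912) or replicate 2 (0.0686) of 4 h. The most abundant guide of the miR-181 family, miR-181a-5p, was at 31878 ± 1591 CPM early and 33716 ± 3173 mid (0.12, adjusted p = 0.25). With library totals as scaling, miR-145a-5p, miR-199a-3p and miR-23b-3p were called lower (-0.30, -0.21 and -0.23, adjusted p = 0.00976, 0.0175 and 0.0151). miR-214-3p lost its call without the replicate block (0.0605) and without replicate 1 of 0 h (0.0552), 4 h (0.0559) or 6 h (0.0553), or replicate 2 of 6 h (0.0583), all adjusted p.

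Arms of 1 hairpin are cut from the same precursor. The ratio of the minor arm (the rarer over the 8 libraries) to the major arm was tested for 138 hairpins with limma on log2 count ratios, with 0.5 added to each count and the replicate as block. In 26 of them, 8 of those called higher and 7 of those called lower, 1 arm is also made by another hairpin, so that its reads are not those of 1 precursor. The ratio was higher at 4 and 6 h for 19 hairpins (13.8%) and lower for 18 (13%). With 1 library left out, the calls of both directions together numbered 25 to 35, always fewer than with all 8 libraries. For 16 of the 18 the minor arm fell while the major arm did not pass, and for the other 2, miR-467d and miR-671, the minor arm was called lower and the major arm higher. The rise of miR-467d-5p (0.36) was kept in 2 of the 8 fits without 1 library, and was 0.09 in reference reads only (adjusted p = 0.699, edgeR). The fall of miR-671-5p (-0.42) was lost without replicate 2 of 4 h (adjusted p = 0.0686) or of 6 h (0.0731) and in reference reads only (0.218). For the 19, 6 had a risen minor and an uncalled major arm, 5 had both arms risen, 5 had a fallen major and an uncalled minor arm, 2 (miR-129b and miR-193a) had the minor arm risen and the major arm fallen, and 1 (miR-340) had neither called.

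The largest gain was in miR-29b-1. miR-29b-1-5p made up 10.3% and 8.01% of its hairpin's reads at 0 h, 5.22% and 10.5% at 1 h, 33.9% and 44.0% at 4 h, then 19.2% and 40.4% at 6 h, with both miR-29b hairpins behind the major arm (log2 ratio change 2.48, SE 0.32, adjusted p = 0.00171, limma). No mid library reached down to an early one. The share of miR-155-3p went from 0.558% ± 0.659 to 2.30% ± 0.967 (log2 ratio change 2.23, SE 0.58, adjusted p = 0.0226, limma), with 1 early library, replicate 1 of 1 h at 1.54%, inside the mid range.

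miR-221-5p went from 8.62% to 15.8% of the reads of its hairpin (log2 ratio change 0.98) and miR-193a-5p from 2.31% ± 0.611 to 7.16% ± 1.22 (1.72). miR-92a-1-5p went from 0.312% to 0.765% (1.33) of its reads and those of miR-92a-3p, which a second hairpin also makes. Each of these ratio changes had adjusted p = 0.00171 in limma. In miR-129b the major arm changed: the share of miR-129b-3p was 23.6% to 34.6% in the early libraries and 51.5% to 58.3% in the mid ones. miR-210-5p, from the hypoxia-responsive miR-210 hairpin, went from 9.05% to 17.3% (log2 ratio change 1.12, adjusted p = 0.00951, limma), while its guide stayed near 148 CPM. For losses, miR-130a-5p went from 0.733% ± 0.364 to 0.252% ± 0.122 (-1.53, adjusted p = 0.00436, limma) and miR-671-5p from 14.1% to 8.34% (-0.86, adjusted p = 0.00652, limma). miR-671 lies in an exon of Chpf2 (chromosome 5).

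**Figure D3:**
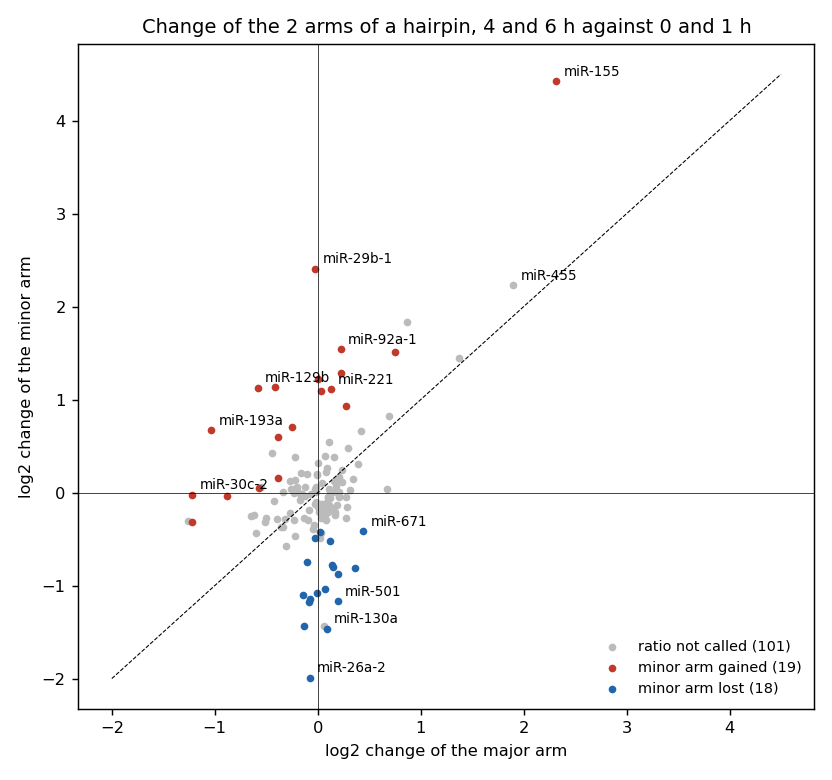
Each point is 1 of 138 hairpins, with the log2 change of its major arm (horizontal) and of its minor arm (vertical) at 4 and 6 h against 0 and 1 h; the dashed line marks equal change, red a ratio called higher (19) and blue one called lower (18). Blue points stand in a column near 0 on the horizontal axis with the minor arm down by up to 1.99, and miR-29b-1 stands above 0 on the same axis with its minor arm at 2.41.

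The reads of a miRNA fall into classes by their ends: equal to the reference, trimmed, extended at the 3′ end by bases of the hairpin (templated), extended by other bases (non-templated), or extended at the 5′ end. The odds of each class were tested per miRNA with limma. Templated extension made up a higher share at 4 and 6 h for 13 of 189 miRNAs (6.88%) and a lower one for 9 (4.76%); non-templated addition for 22 (10.6%) and 10 (4.81%) of 208. The trimmed share was higher for 9 (3.57%) and lower for 13 (5.16%) of 252, and the reference share for 12 (4.38%) and 27 (9.85%) of 274. Non-templated calls, 32 in all, numbered 14 without replicate 1 of 0 h, 11 without replicate 2 of 0 h, 13 without replicate 2 of 1 h, 17 and 19 without replicate 1 and 2 of 6 h, and 17 without the replicate block. Trimmed calls numbered 10 to 16 with 1 library left out, reference calls 21 to 37 and templated calls 14 to 22. Of the 13 with a lower trimmed share 9 had risen in level and 0 had fallen; of the 9 with a higher trimmed share 0 had risen and 4 had fallen. Of all 252 tested for this share 32 had risen and 34 had fallen.

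miR-155-5p changed most in its ends. Templated 3′ extension made up 21.9% and 24.2% of its reads at 0 h, 22.9% and 20.3% at 1 h, 71.2% and 75.9% at 4 h, then 62.0% and 66.7% at 6 h (log2 odds change 2.96, SE 0.20, adjusted p = 0.000342, limma). The 4 early libraries were close together and far below the mid ones, and the trimmed share moved the other way, from 28.9% ± 1.26 to 5.72% ± 1.28. miR-149-5p lost trimmed reads as well, from 63.7% ± 3.65 to 28.7% ± 0.803, but gained the reference form, from 25.9% ± 2.48 to 65.9% ± 0.849 (log2 odds change 2.47, SE 0.10, adjusted p = 1.65e-05, limma). The same direction was seen in miR-221-5p, whose reference share went from 60.2% to 73.3%, and in miR-132-3p, whose reference share went from 48.3% to 62.5%. miR-222-3p was mostly templated-extended on both sides, at 89.8% and 93.9%.

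Non-templated addition rose on both fallen miR-30 guides. In miR-30b-5p it made up 3.24% and 2.80% at 0 h, 2.86% and 3.58% at 1 h, 9.43% and 12.1% at 4 h, then 11.1% and 14.3% at 6 h (log2 odds change 2.03, SE 0.14, adjusted p = 0.000391, limma), and no early library was near the mid range. Addition of A alone was 1.51% ± 0.416 early and 7.18% ± 2.45 mid. In miR-30c-5p the share went from 5.36% ± 0.403 to 10.3% ± 0.544 (1.02, SE 0.08, adjusted p = 0.000633, limma), with A at 1.31% and 4.31%. miR-21a-5p, whose level did not pass, went from 3.96% ± 0.226 to 8.60% ± 1.65 non-templated (1.18, SE 0.11, adjusted p = 0.00135, limma), of which addition of C was 2.52% early and 7.11% mid. In miR-455-3p, which rose, addition of C made up 39.1% ± 4.72 of the reads early and 54.4% ± 1.18 mid.

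**Figure D4:**
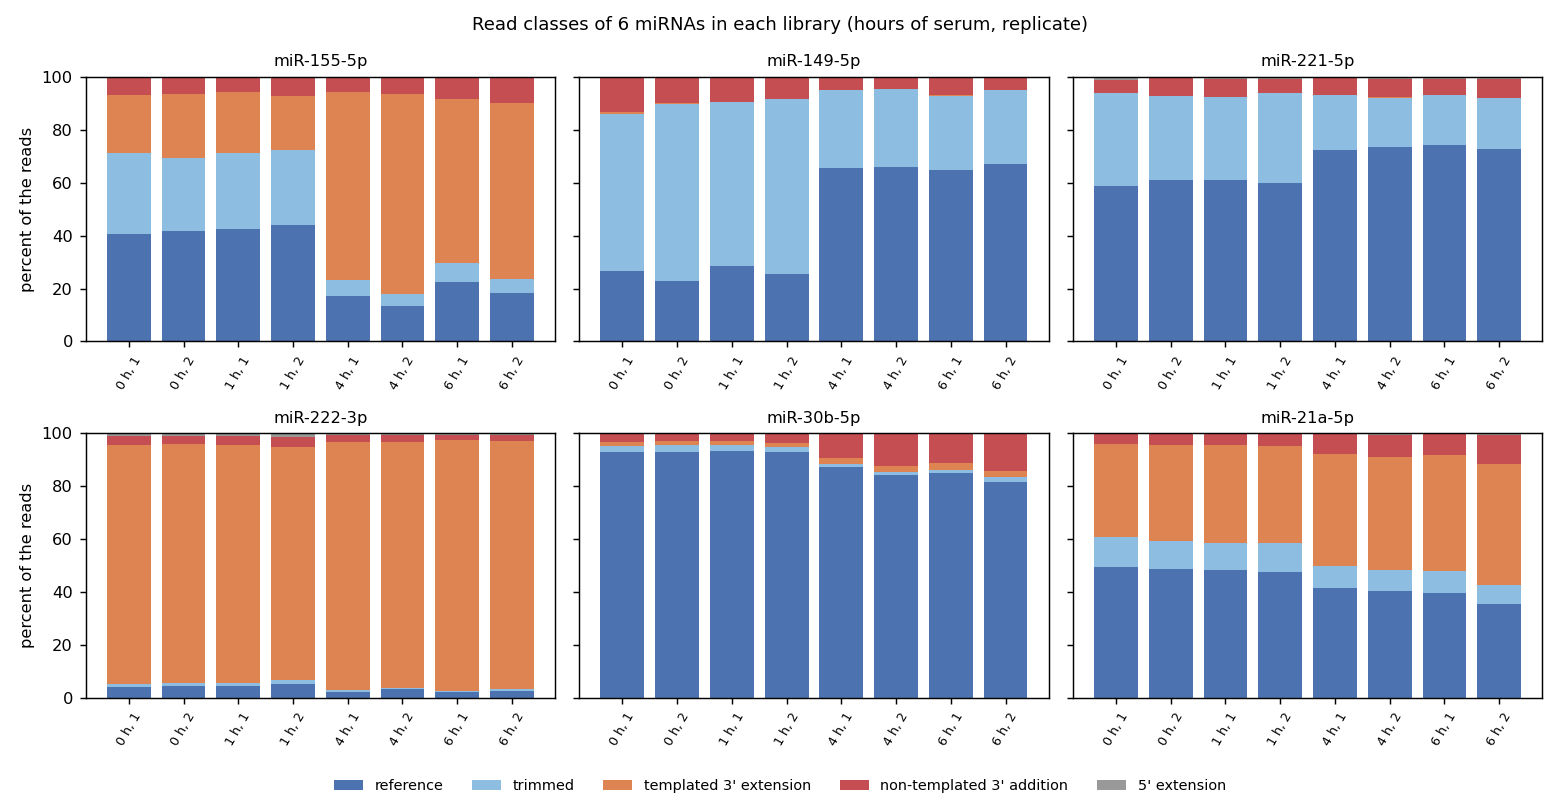
Stacked bars give the percent of reads of 6 miRNAs in each end class (vertical) for each of the 8 libraries (horizontal, hours of serum and replicate). miR-155-5p passes from 22.3% to 69.0% templated extension, miR-149-5p from 25.9% to 65.9% reference reads, and miR-30b-5p from 3.12% to 11.7% non-templated addition.

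Over all miRNA reads of a library these shifts were small. Trimmed reads were 25.9% ± 0.158 of the reads early and 24.9% ± 0.355 mid, and non-templated additions 10.7% ± 0.222 and 11.2% ± 0.281; both gave an exact 2-sided permutation p of 0.0286, the smallest that 4 against 4 allows, and 0.114 after adjustment over 8 shares. Minor arms made up 2.61% ± 0.0546 and 2.45% ± 0.161 of the reads of hairpins with both arms (exact permutation p = 0.0571, adjusted 0.152). Of the 8 shares 0 passed after adjustment, and 2 had an unadjusted p under 0.05 in this exact permutation test. With libraries permuted within replicates, which leaves 36 arrangements, the smallest possible p is 0.0556, so that no share could reach 0.05.

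The 2 hours of a side were compared in a fit of all 16 libraries. At 1 h against 0 h, 5 of 449 miRNAs were called (1.11%; 26 had an unadjusted p under 0.05, 5.79%). The passenger miR-27a-5p stood at 39.4 and 46.3 CPM at 0 h, 96.9 and 132 at 1 h, 68.5 and 84.8 at 4 h, then 68.7 and 84.2 at 6 h (1 h against 0 h: log2 change 1.40, SE 0.15, adjusted p = 6.49e-05, edgeR). Its early libraries enclose the mid ones, so mid against early gave 0.01, and with the 1 h libraries alone as the early side -0.56 (adjusted p = 0.00242). miR-128-1-5p (1.40), miR-345-5p (0.70) and miR-1843a-3p (0.86) were also higher at 1 h, and miR-26a-2-3p was lower (-1.14, SE 0.19, adjusted p = 0.00405, edgeR). The count of 5 dropped to 2 or 3 when any 1 of the 0 h or 1 h libraries was left out. At 6 h against 4 h edgeR called 0 of 449 (0%), with 28 at an unadjusted p under 0.05 (6.24%) and 3 called where no filter on low counts was used.

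The other hours of the course, which the comparison did not use, are given as levels without a test. miR-155-3p was at 29.6 and 32.6 CPM at 2 h, above every mid library, and at 4.93 and 5.82 at 12 h. miR-155-5p was at 174 and 180 CPM at 2 h, between the early and mid levels, and at 251 and 314 at 12 h. miR-29b-1-5p was already at 28.8 and 23.7 CPM at 2 h, whereas miR-455-3p was at 7.52 and 9.06. miR-210-5p, at 27.5 to 35.5 CPM in the mid libraries, was at 9.93 and 9.81 at 2 h and at 12.0 and 8.96 at 12 h. miR-16-1-3p returned to 12.4 and 8.65 CPM at 12 h, and miR-30c-5p stood at 758 and 613, lower than at 4 h.

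**Figure D5:**
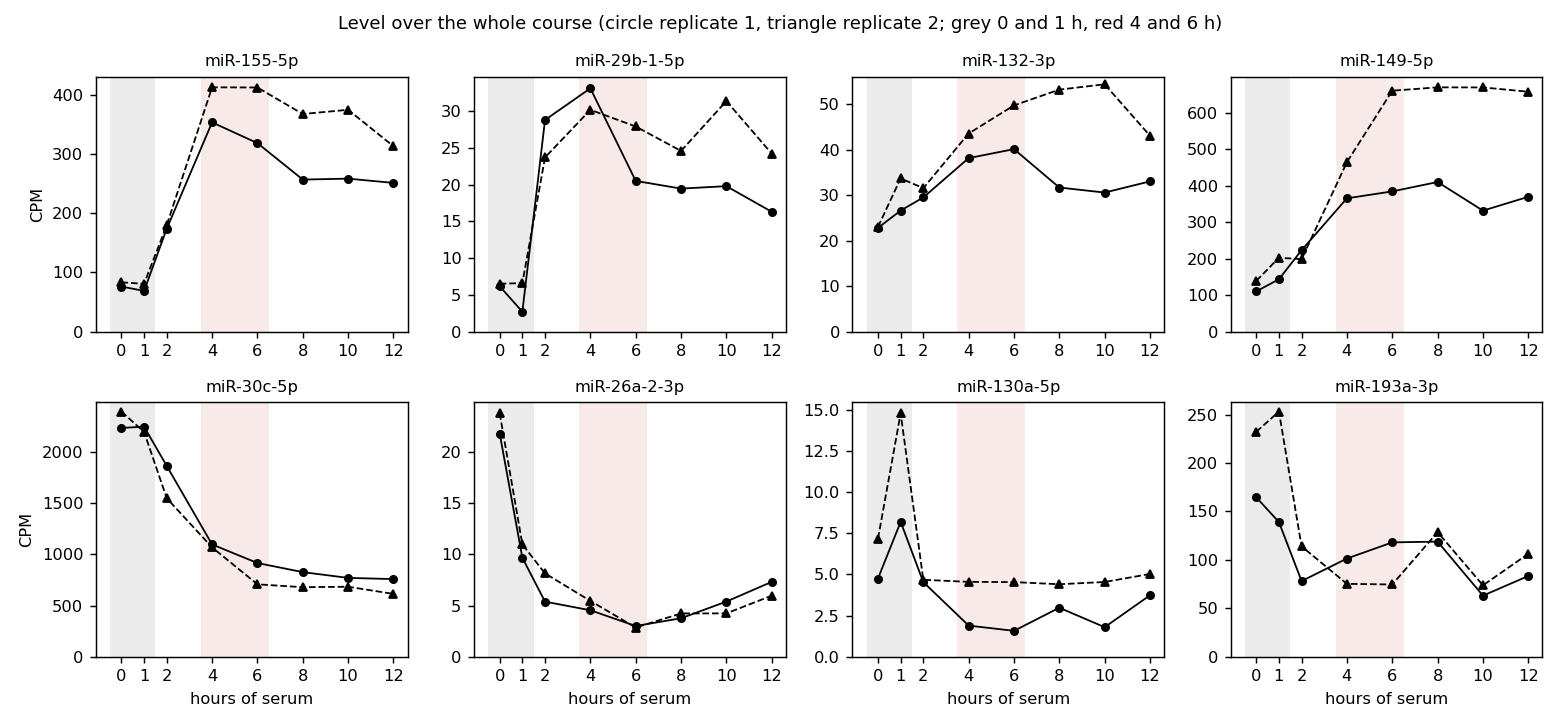
Level in CPM (vertical) of 8 miRNAs at every hour of serum analysed (horizontal); circles and solid lines are replicate 1, triangles and dashed lines replicate 2, with the early hours shaded grey and the mid hours red. miR-155-5p and miR-29b-1-5p stand highest at 4 h or 6 h, with replicate 2 of miR-29b-1-5p an exception at 10 h, and miR-30c-5p stays low to 12 h.

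Of the 99 calls, 72 (39 risen, 33 fallen) were kept in each of the 8 fits that left out 1 library, and 26 (16 risen, 10 fallen) in these and all 14 other settings tried. In reads equal to the reference alone 65 of the 99 were called. A miRNA removed by a setting's filter on low counts was not tested there but counts as not kept. miR-212-3p, for example, was lost only where a mean of at least 10 CPM was asked, which its level did not reach.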

How the data were processed

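The authors deposited 1 table of raw read counts per miRNA and end class, with 1 column per library, per the file headers; libraries came from 1000 ng of RNA, per the labels' protocols. The submitters' processing notes list CASAVA 1.8.0; aligner, miRBase release and multi-match rule: not given in the sources used here. Of 6511 entries 1 identical duplicate was dropped, and 8 end classes were summed for 1167 mature miRNAs. Entries naming the added base repeat reads of the non-templated classes and were not summed; class meanings were read from the entry names.

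Counts were tested with edgeR 4.0.16 (quasi-likelihood F-test, TMM, filterByExpr with a minimum count of 10, Benjamini-Hochberg 0.05, R 4.3.3); 417 miRNAs passed and 750 did not, with at least 99.9827% of each library's reads on the former. Adjusted p-values for levels come from this test, with SE taken as the log2 change over the square root of F. CPM values use TMM-scaled totals of 16 libraries (factors 0.935 to 1.07). Arm ratios and end-class odds, added after seeing the data, were tested with limma 3.58.1 with 0.5 added to counts. DESeq2 1.42.0 and limma-voom were alternatives. Scripts were tested on simulated data. The replicate number was the block: deviations of same-numbered libraries correlated at 0.238 to 0.568 between hours. Replicates of an hour differed by 58.8 to 154 chi-square per degree of freedom.

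Members and lists were chosen with earlier results of these data known. Named miRNAs were the 10 largest rises and falls among calls of the same sign in both replicates, the 5 most abundant of each direction and of all tested, the 2 most abundant tested members of each list of at least 3 and up to 6 of its called members, the 3 largest called rises and falls within a side, and the other arms; further miRNAs were named after their values were seen. Positions and sequences are from RefSeq (GRCm38.p6), host genes from GENCODE on the same build. Lists were described by counts and medians.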

Additional observations from a re-analysis of the deposited data

Results flagged for a closer look

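In miR-155-3p, replicate 1 of 1 h stood at 1.07 CPM, apart from the other early libraries at 0.140 to 0.271 CPM. For miR-29b-1-5p the same library was lowest of the early side at 2.69 CPM, against 6.15 to 6.59 in the others. In miR-455-5p, replicate 2 of 4 h was lowest of the mid side at 24.3 CPM, against 33.1 to 34.0. These libraries were picked out by a gap that is large for the range of their group, which chance gives in about 1 in 20 groups of 4. Both sides of every miRNA named for the size of its change or for its level were screened. With so many groups some such gaps are to be had by chance, and no correction for their number was made. The fall of miR-193a-3p differed between replicates by -1.18 on the log2 scale (edgeR interaction test, adjusted p = 0.0114), larger in replicate 2.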

How the results depend on the processing

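Fits with the replicate block gave 99 calls; with no replicate block there were 74, all among the 99. The count was 123 with library totals, 70 with a mean of at least 10 CPM, 61 with 6 h alone as the mid side (fewer libraries) and 81 to 115 with 1 library left out; it was 100 by DESeq2, 103 by voom and 115 with no low-count filter, so that 6 h alone moved it most. For 1 h against 0 h, 2 miRNAs were called with no replicate block, 2 with at least 10 CPM, and 2 to 3 with 1 library left out. For 6 h against 4 h, 3 were called with no filter. Differences between replicates numbered 6 with library totals and 4 with at least 10 CPM.

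Calls of end-class shares with 1 library left out were 14 to 22 for templated extension, 11 to 26 for non-templated addition (17 with no replicate block), 10 to 16 for trimmed and 21 to 37 for reference reads. Among the miRNAs named by rule, signs turned for miR-146b-5p (-0.0596) and miR-222-3p (-0.17) in reference reads only. The sign of miR-27a-5p turned (-0.56) with 1 h alone as the early side. Outside the named ones, the risen miR-3057-5p (0.41) turned to -0.40 in reference reads only (adjusted p = 0.215, edgeR). The library share of reference reads moved between -0.306 and 0.262 percentage points, and that of 5′ extensions between -0.00928 and 0.00525, with 1 library left out. The cause was not tested. Levels under about 0.5 CPM cannot be told from 0.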
